A study of Homo sapiens with 6 samples.

Results

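The S100 proteins and annexins described here are 10 human genes, 6 of the S100 family (S100A4, S100A6, S100A10, S100A11, S100A13 and S100A16) and 4 annexins (ANXA1, ANXA2, ANXA5 and ANXA6). They were taken by gene symbol from a count table of 36884 genes, none of the 10 symbols occurred more than once, and their RNA was compared between MK5 siRNA and control siRNA. Libraries came from RPE1 cells, an immortalized and non-transformed line from human retinal pigment epithelium. Every library, control libraries included, was made from cells in which CRISPR-Cas9 had inactivated LATS1 and LATS2, the Hippo pathway kinases that hold back the coactivators YAP and TAZ. The first group received siRNA against MK5 (the kinase encoded by MAPKAPK5) for 48 h and the second received control siRNA for the same time, with 3 libraries each, described by the submitters as biological replicates. Whether the edited line is a single clone, and which siRNA sequences were used, is not given in the sources used here.

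S100 proteins are small calcium-binding proteins with a pair of EF-hand helices and loops. When calcium rises, most of them open a binding face and attach to partner proteins, although S100A10 is held in the open form without calcium. Annexins bind acidic phospholipids of membranes in the presence of calcium and serve in vesicle traffic, membrane repair and the attachment of the cortical cytoskeleton. Several S100 proteins bind the N-terminal tail of a particular annexin: S100A10 joins annexin A2, S100A11 joins annexin A1 and S100A6 joins annexin A11. In cultured adherent cells these are among the most abundant calcium-binding proteins.

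The 6 libraries held 27188074 to 28236773 counts. MAPKAPK5, the target of the siRNA, was at 17.4, 14.1 and 16.2 CPM (counts relative to the library total, scaled by TMM) in MK5 siRNA replicates 1, 2 and 3, against 35.6, 29.1 and 31.3 CPM in control replicates 1, 2 and 3. It fell by 1.01 ± 0.14 on the log2 scale (estimate ± SE, edgeR adjusted p = 0.00169). Its exons overlap those of ADAM1A and, on the opposite strand, MAPKAPK5-AS1 in GENCODE 29. Of 12 genes that define retinal pigment epithelium, the transcription factor genes OTX2 and MITF were counted at 665 or more in every library, whereas RPE65, RLBP1 and TYR had at most 2 counts in any library and TTR had none. The summed level of that list was 59.6 to 67.1 CPM in MK5 siRNA libraries and 85.8 to 97.8 CPM in control libraries. Most of this difference was MITF, at a mean of 25.3 CPM after MK5 siRNA and 54.1 CPM in controls. OTX2 was at 34.8 and 32.4 CPM. The sum of 6 simple epithelial genes (EPCAM at 0) was 399 to 590.3 CPM after MK5 siRNA and 766 to 846 CPM in controls. Most of it was KRT8, at a mean of 363 CPM after MK5 siRNA and 642 CPM in controls. KRT18 was at 88.7 and 148 CPM. KRT7 was at 13.6 and 16.3 CPM, with libraries that overlapped between the groups. Of 6 fibroblast genes, with none at 0, the sum was 133 to 296 CPM after MK5 siRNA and 41.5 to 70.2 CPM in controls, nearly all of it COL1A1, and of 6 leukocyte genes (LYZ at 0) it stayed at or below 0.539 CPM in every library. The part of these differences in the results below was not tested, and in bulk RNA fewer cells of a type cannot be told apart from less RNA per cell.

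Control replicate 1 stood apart from control replicates 2 and 3 in many of the members. It lay at least 1.5-fold from their mean in 6 of the 10 members, as it did in 37.0% of all genes tested. It was higher for ANXA1 (3.64-fold), S100A4 (2.46-fold), ANXA5 (2.14-fold) and S100A10 (1.62-fold), and lower for S100A13 and ANXA6, which stood at 0.602 and 0.463 of the mean. In MK5 siRNA replicate 1, none of the members lay that far from replicates 2 and 3. Results are therefore given over all libraries and, beside them, for replicates 2 and 3 of both groups alone. That choice was made after the spread in these data was seen. The common coefficient of variation between replicates was 21.2% over all libraries and 4.63% with replicates 2 and 3 alone. SE and p-values of the second fit thus reflect how close replicates 2 and 3 lay. They leave out the spread of control replicate 1, as do those of fits without that library.

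The members spanned a wide range of abundance. Per kilobase of exon (CPM per kb), which allows genes of unequal length to be set side by side, ANXA2 led with 1455 ± 174 in MK5 siRNA libraries and 2134 ± 376 in control libraries (SD, n = 3 each), rank 19 and rank 11 of 13422 genes. S100A6 followed with 885 ± 56.7 after MK5 siRNA and 1121 ± 168 in controls. ANXA5 came next after MK5 siRNA, at 598 ± 43.1 CPM per kb, against 347 ± 166 in controls, where S100A11 and S100A16 stood above it. S100A11 was at 427 ± 27.5 and 415 ± 27.2, and S100A16 at 169.8 ± 10.9 and 354 ± 29.9, in MK5 siRNA and control libraries. The order S100A16, ANXA1, ANXA6 was not resolved after MK5 siRNA, since the libraries of each neighbouring pair overlapped. In controls, the libraries of every neighbouring pair from S100A16 down through ANXA5, ANXA6, S100A10, ANXA1 and S100A13 overlapped. S100A4 was last in both groups, at 0.241 ± 0.0690 CPM per kb after MK5 siRNA and 1.48 ± 0.843 in controls. Together the members took 0.637%, 0.619% and 0.618% of all counts in MK5 siRNA libraries and 0.781%, 0.694% and 0.685% in control libraries. Every MK5 siRNA library was below every control library (difference of −0.0954 percentage points, exact two-sided permutation test, p = 0.1, the smallest that 3 against 3 libraries allow). Against the TMM-scaled library totals used for CPM, the difference was −0.145 percentage points, with the same p. ANXA2 alone made up 43.3% to 48.9% of the members' counts in MK5 siRNA libraries and 51.0% to 57.3% in control libraries. The share thus follows this gene more than any other member. With ANXA2 taken out, the share of the remaining members in all counts overlapped between the groups. Against the TMM-scaled totals, that remaining share was lower after MK5 siRNA, without overlap. The answer for the remaining members thus depends on the scaling, and neither difference was tested.

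Over all 6 libraries, 4 of the 10 members fell and none rose: S100A16, S100A4, S100A10 and ANXA2 (edgeR quasi-likelihood test, threshold of 0.05 on p-values adjusted by Benjamini-Hochberg). In all genes tested, 46.2% passed, 22.5% upward and 23.7% downward. All 10 members passed the filter on low counts, S100A4 only through its control libraries, and without it 3 of 9 fell. With replicates 2 and 3 alone, 2 members rose (ANXA1 and ANXA5) and 7 fell, with S100A11 the one that did not pass. That fit called 37.9% of all genes upward and 37.8% downward, so most genes pass in it. The median log2 fold change of the members was −0.37 over all libraries (−0.34 without S100A4), against 0.00 for all genes tested. The libraries of the groups did not overlap in 6 of the 10 members (5 lower, S100A4 among them, and 1 higher after MK5 siRNA), a share like the 60.4% of all genes.

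**Figure D1:**
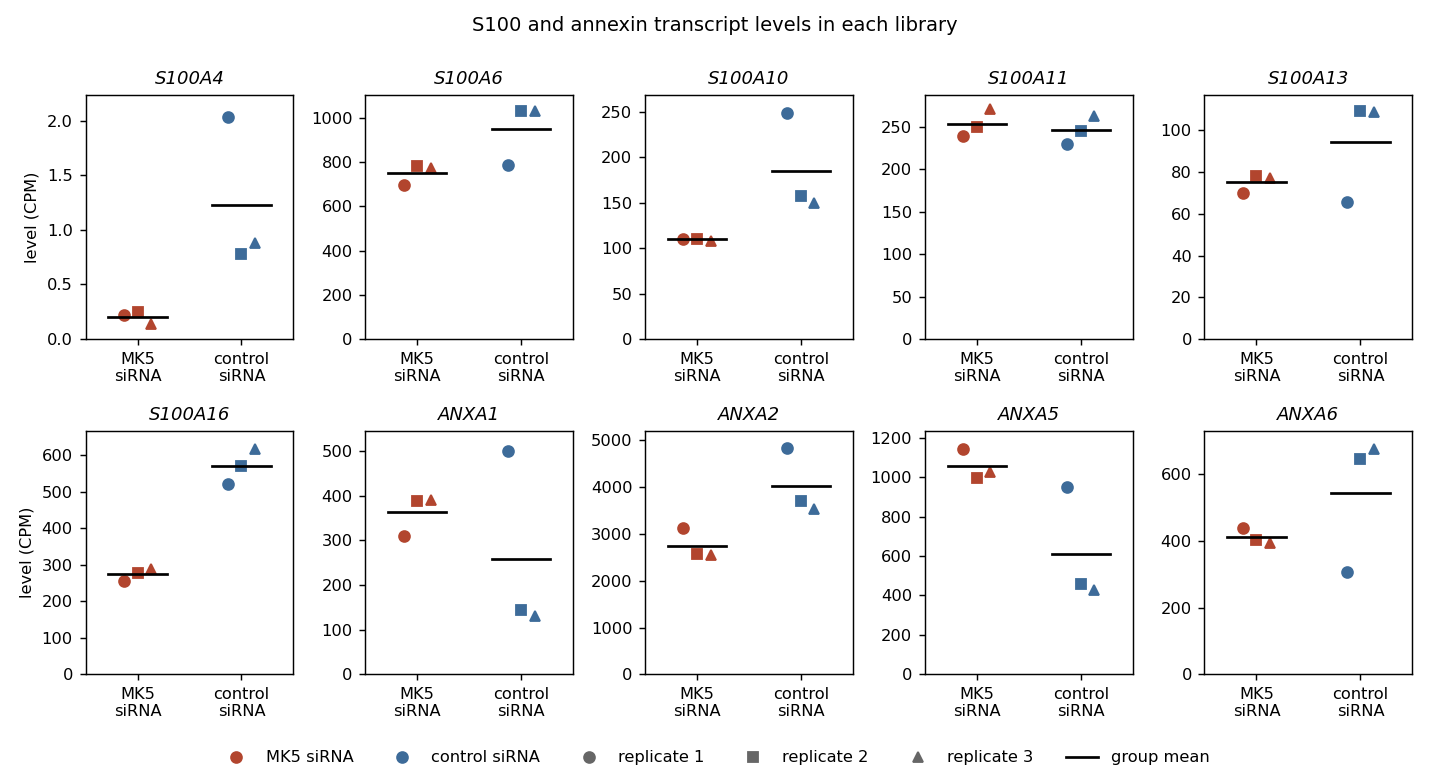
Level of each member (y axis, CPM, each panel from 0) in the 3 MK5 siRNA libraries (red, left) and the 3 control libraries (blue, right), with symbols for replicates and a bar for the group mean. For S100A16 the MK5 siRNA libraries lie at 255 to 289 CPM and the controls at 521 to 618 CPM, whereas for ANXA1 control replicate 1, at 501 CPM, lies above every other library.

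Promoter sequences are shown for 4 members on which the comparison turns: ANXA2 and S100A10, whose products form a complex and which both fell, S100A16, with the firmest fall, and ANXA1, with the widest spread between controls. All 10 members matched an entry of the RefSeq promoter table (GRCh38.p14, 250 bases before to 50 after the gene's start). Capitals mark matches, on either strand, to the AP-1 site TGACTCA or to GGAATG, the core bound by TEAD factors, the partners of YAP. The ANXA2 window is chr15:60397937-60398236 (minus strand), that of S100A10 chr1:151993810-151994109 (minus strand), that of S100A16 chr1:153613088-153613387 (minus strand) and that of ANXA1 chr9:73151615-73151914 (plus strand).
ANXA2: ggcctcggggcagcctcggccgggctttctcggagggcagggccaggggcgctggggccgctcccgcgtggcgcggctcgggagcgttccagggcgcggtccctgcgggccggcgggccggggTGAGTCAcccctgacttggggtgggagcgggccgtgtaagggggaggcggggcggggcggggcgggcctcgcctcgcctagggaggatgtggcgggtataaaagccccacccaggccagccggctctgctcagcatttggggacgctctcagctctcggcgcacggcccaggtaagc
S100A10: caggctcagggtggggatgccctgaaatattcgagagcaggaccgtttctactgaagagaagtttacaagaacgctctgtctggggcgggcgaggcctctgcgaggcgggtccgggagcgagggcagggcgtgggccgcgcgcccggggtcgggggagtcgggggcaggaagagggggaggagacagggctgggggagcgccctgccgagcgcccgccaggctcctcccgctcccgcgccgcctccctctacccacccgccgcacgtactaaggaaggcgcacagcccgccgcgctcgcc
S100A16: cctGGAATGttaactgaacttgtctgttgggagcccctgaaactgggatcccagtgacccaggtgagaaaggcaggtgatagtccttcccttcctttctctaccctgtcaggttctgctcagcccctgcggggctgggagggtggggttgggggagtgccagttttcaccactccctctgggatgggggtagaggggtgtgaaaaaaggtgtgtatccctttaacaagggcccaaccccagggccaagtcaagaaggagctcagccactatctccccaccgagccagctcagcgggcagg
ANXA1: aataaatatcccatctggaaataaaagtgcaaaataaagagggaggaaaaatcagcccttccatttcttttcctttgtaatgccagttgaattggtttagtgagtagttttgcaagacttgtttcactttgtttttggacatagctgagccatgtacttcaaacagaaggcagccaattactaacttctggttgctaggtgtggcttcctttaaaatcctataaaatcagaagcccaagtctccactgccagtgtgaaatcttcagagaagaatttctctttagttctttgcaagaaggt

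ANXA2 held 1 AP-1 match, which began 127 bases before the start and read in the reverse orientation, and S100A16 held 1 TEAD match, 247 bases before the start. No other member held either, where 4.95% and 14% of 35116 promoters in the table do. The CArG box, bound by SRF, occurred in none of the members and in 1.29% of promoters. No match to one of these motifs overlapped a match to another in the members. The windows also differed in base composition: G and C made up 76% of the ANXA2 window and 71.7% of the S100A10 window, against 37.7% of the ANXA1 window. ANXA1 and ANXA2 each held the TATA box TATAAA, on either strand, as did S100A4, against 11.5% of all promoters. A match of letters describes the window and shows no binding.

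S100A16 gave the most even fall among the members. This widely expressed S100 protein binds calcium weakly. Its level was 255, 277 and 289 CPM in MK5 siRNA replicates 1, 2 and 3, against 521, 572 and 618 CPM in control replicates 1, 2 and 3. Every MK5 siRNA library was below every control, and the replicates of each group lay close together. S100A16 was 2.08-fold lower after MK5 siRNA (log2 fold change −1.06 ± 0.11, edgeR adjusted p = 0.000676), with changes of −1.03, −1.04 and −1.09 in replicate pairs 1, 2 and 3. Pair values are differences of log2(CPM + 0.5) between libraries with the same replicate number.

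S100A10 and ANXA2, the subunits of the annexin A2 heterotetramer at the plasma membrane, both fell. S100A10 was at 110.2, 110.1 and 108 CPM after MK5 siRNA, and at 248, 157 and 150.0 CPM in control replicates 1, 2 and 3. The MK5 siRNA libraries were nearly equal, and every control was higher, control replicate 1 most of all. The log2 fold change of S100A10 was −0.76 ± 0.20 (edgeR adjusted p = 0.0199), −0.48 without control replicate 1, and −0.49 ± 0.06 with replicates 2 and 3 alone (edgeR adjusted p = 4.46e-07). The call was lost when MK5 siRNA replicate 1, 2 or 3 was left out, at nearly the same size (−0.76, −0.75 and −0.74, edgeR adjusted p = 0.0670, 0.0698 and 0.0716).

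ANXA2, by far the most abundant member, was at 3123, 2573 and 2539 CPM after MK5 siRNA, and at 4838, 3698 and 3539 CPM in control replicates 1, 2 and 3. Replicate 1 was the highest library of each group, and the groups did not overlap. ANXA2 gave a log2 fold change equal to −0.55 ± 0.16 (edgeR adjusted p = 0.0285), and −0.50 ± 0.05 with replicates 2 and 3 alone (edgeR adjusted p = 3.27e-08). Its call was lost on leaving out MK5 siRNA replicate 2 or 3 (−0.50 and −0.49, edgeR adjusted p = 0.110 and 0.108). Its processed pseudogene ANXA2P2 held 161 to 184 counts in MK5 siRNA libraries and 181 to 260 in control libraries, beside 73978 to 85593 and 96747 to 126273 for ANXA2. Adding the pseudogene rows to ANXA2 left the log2 fold change at −0.55.

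The ratio of counts between the subunits, which does not depend on how libraries are scaled, overlapped between the groups. The ratio of S100A10 to ANXA2 counts was 0.0353, 0.0428 and 0.0425 in MK5 siRNA replicates 1, 2 and 3, and 0.0513, 0.0424 and 0.0424 in control replicates 1, 2 and 3. Replicates 2 and 3 lay together in both groups, and replicate 1 was the lowest library after MK5 siRNA and the highest among controls. The difference on the log2 scale was −0.17 (exact two-sided permutation test, p = 0.6, where 0.1 is the smallest p possible), and 0.01 with replicates 2 and 3 alone. With so few libraries no difference, of any size, could pass a threshold of 0.05 in this test.

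In the other pairs of partners, S100A11 to ANXA1 also overlapped between the groups, whereas S100A6 to ANXA11 did not. The ratio of S100A11 to ANXA1 counts was 0.772, 0.646 and 0.696 after MK5 siRNA, and 0.460, 1.72 and 1.996 in control replicates 1, 2 and 3, so that control replicate 1 was the lowest of all and the other controls were the highest (log2 difference −0.73, exact two-sided permutation test, p = 0.4). Without control replicate 1 the difference was −1.40. The ratio of S100A6 to ANXA11 counts was 4.55, 4.94 and 5.14 after MK5 siRNA, against 2.81, 4.04 and 4.003 in controls, with no overlap (log2 difference 0.45, exact two-sided permutation test, p = 0.1, the smallest possible). Without control replicate 1 that difference was 0.28.

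**Figure D2:**
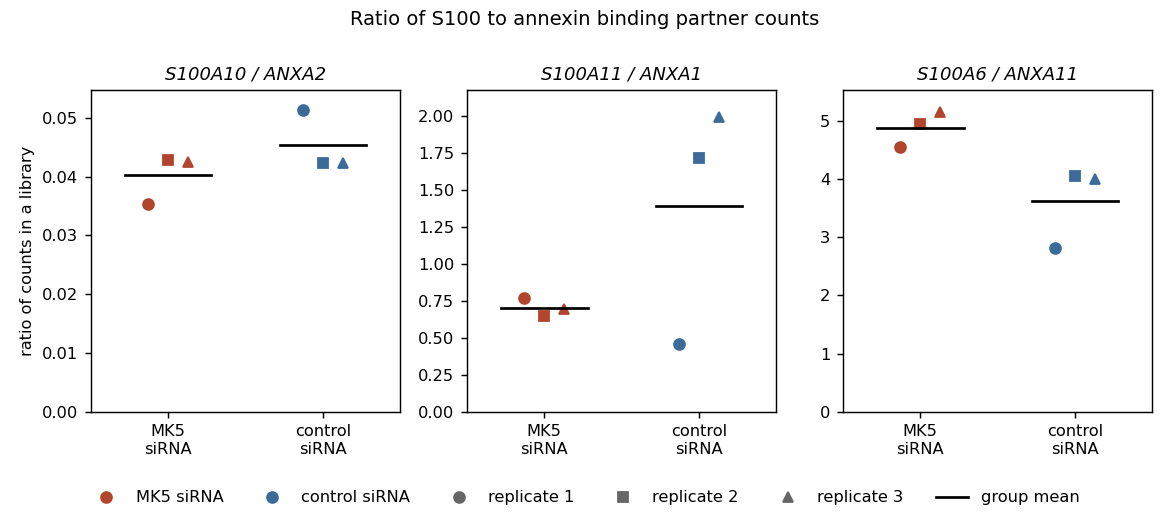
Ratio of S100 to annexin counts within each library (y axis, counts over counts, from 0) for 3 pairs of binding partners, with MK5 siRNA libraries in red on the left and control libraries in blue on the right, symbols for replicates and bars for group means. The ratio of S100A10 to ANXA2 overlaps between groups, that of S100A11 to ANXA1 spreads from 0.460 to 1.996 among controls, and that of S100A6 to ANXA11 is higher in every MK5 siRNA library.

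Among the other annexins, ANXA5 and ANXA1 were higher after MK5 siRNA than in control replicates 2 and 3, and control replicate 1 set how far this held over all libraries. ANXA5 binds phosphatidylserine and is the protein used to stain dying cells. It was at 1141, 998 and 1024 CPM after MK5 siRNA, against 949, 459 and 428 CPM in control replicates 1, 2 and 3. All MK5 siRNA libraries were above all controls, with control replicate 1 close beneath them. The log2 fold change of 0.78 ± 0.31 did not pass (edgeR adjusted p = 0.0731). It passed with the replicate number as a block (0.88, edgeR adjusted p = 0.0336), with libraries scaled by their totals only (0.90, edgeR adjusted p = 0.0341), without control replicate 1 (1.25, edgeR adjusted p = 1.75e-05) and with replicates 2 and 3 alone (1.19 ± 0.06, edgeR adjusted p = 2.93e-13).

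ANXA1 dampens inflammation when released, through formyl peptide receptors, and is a substrate of the EGF receptor. It was at 311, 387 and 391 CPM after MK5 siRNA, against 501, 143 and 132 CPM in control replicates 1, 2 and 3. The MK5 siRNA libraries lay between control replicate 1 and the other controls. Over all libraries the log2 fold change was 0.49 ± 0.51 (edgeR adjusted p = 0.458), with a 95% interval, before adjustment, from −0.71 to 1.68. The change was −0.69 in replicate pair 1, against 1.43 and 1.57 in pairs 2 and 3. ANXA1 passed without control replicate 1 (1.41, edgeR adjusted p = 4.25e-05) and with replicates 2 and 3 alone (1.505 ± 0.06, or 2.84-fold, edgeR adjusted p = 2.87e-14).

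ANXA6, which has a duplicated annexin core and acts in endocytosis and cholesterol traffic, showed the reverse arrangement. It was at 439.5, 401 and 395 CPM after MK5 siRNA, against 306, 646 and 676 CPM in control replicates 1, 2 and 3. Control replicate 1 was the lowest library and the other controls were the highest. Over all libraries ANXA6 gave −0.40 ± 0.28 on the log2 scale (edgeR adjusted p = 0.284), with an interval from −1.07 to 0.27. Replicate pair 1 changed by 0.52, and pairs 2 and 3 by −0.69 and −0.78. ANXA6 passed downward without control replicate 1 (−0.68, edgeR adjusted p = 0.000161) and with replicates 2 and 3 alone (−0.73 ± 0.05, edgeR adjusted p = 3.39e-10).

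The remaining S100 members differed in whether they changed at all. S100A6, calcyclin, was the most abundant of them, at 695, 783 and 772 CPM after MK5 siRNA, against 785, 1033 and 1029 CPM in control replicates 1, 2 and 3. The groups were apart only by the narrow gap between MK5 siRNA replicate 2 and control replicate 1. Its log2 fold change of −0.34 ± 0.14 did not pass (edgeR adjusted p = 0.0830), but it passed with the replicate number as a block (−0.33, edgeR adjusted p = 0.0444), without control replicate 1 (−0.45, edgeR adjusted p = 0.00156) and with replicates 2 and 3 alone (−0.40 ± 0.05, edgeR adjusted p = 8.79e-07).

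S100A13, which takes part in the release of FGF1 from cells, was at 70.05, 78.0 and 77.3 CPM after MK5 siRNA, against 65.7, 109 and 109 CPM in control replicates 1, 2 and 3. Control replicate 1 was the lowest library, so the groups overlapped (−0.33 ± 0.20, edgeR adjusted p = 0.217). S100A13 passed downward without control replicate 1 (−0.53, edgeR adjusted p = 0.000600) and with replicates 2 and 3 alone (−0.49 ± 0.06, edgeR adjusted p = 6.60e-07). In GENCODE 29 its exons share 28 bases with S100A1 on the opposite strand, a gene with 1 to 21 counts per library.

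S100A11, which binds ANXA1 at endosomes and sites of membrane injury, was at 239.8, 249.8 and 272 CPM after MK5 siRNA, against 230.3, 246 and 263 CPM in control replicates 1, 2 and 3. The libraries of the groups interleaved. S100A11 gave 0.04 ± 0.10 on the log2 scale and missed the threshold (edgeR adjusted p = 0.755), with a 95% interval from −0.20 to 0.29, and 0.04 ± 0.06 with replicates 2 and 3 alone (edgeR adjusted p = 0.549).

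S100A4, a binder of nonmuscle myosin linked to cell motility, was close to the limit of detection. It had 6, 7 and 4 counts in MK5 siRNA replicates 1, 2 and 3, and 53, 21 and 24 counts in control replicates 1, 2 and 3, or 17 and 98 counts in all. In CPM these are 0.219, 0.243 and 0.135 after MK5 siRNA, against 2.03, 0.774 and 0.878 in controls. Every MK5 siRNA library was lower than every control, with control replicate 1 the highest. S100A4 gave a log2 fold change equal to −2.60 ± 0.52 (edgeR adjusted p = 0.00656), and −2.10 ± 0.42 with replicates 2 and 3 alone (edgeR adjusted p = 0.000148). It passed the filter on low counts only through its control libraries, so its entry into the test depended on the difference tested. These p-values therefore describe the gene and lend no support to a fall.

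**Figure D3:**
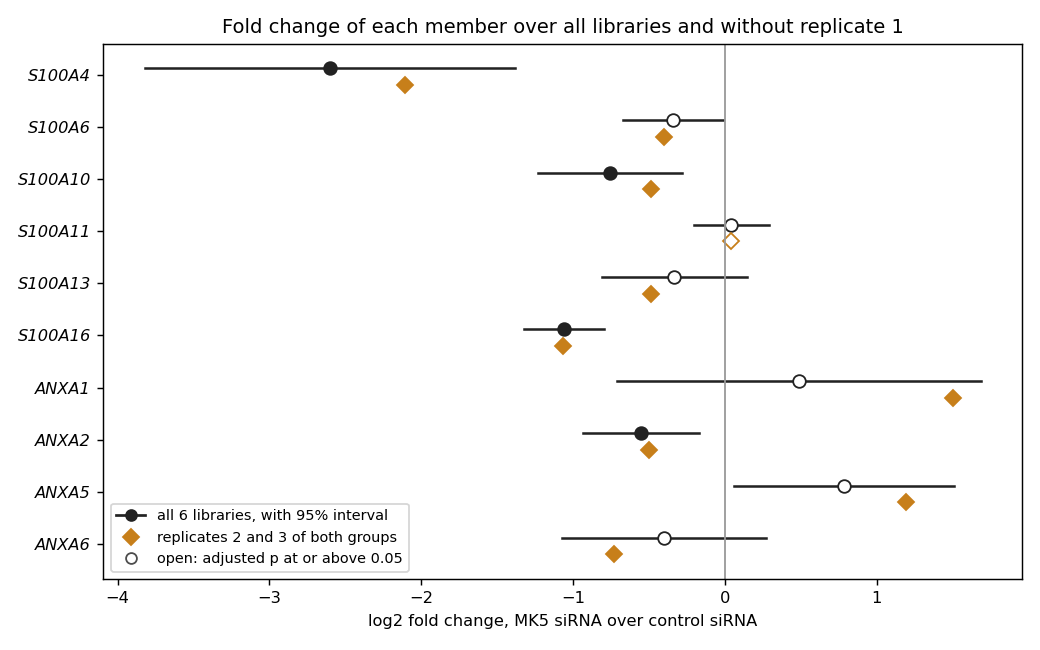
Log2 fold change of each member, MK5 siRNA over control siRNA (x axis). Circles give all 6 libraries with the 95% interval before adjustment, diamonds give replicates 2 and 3 of both groups, and open symbols did not pass an adjusted p of 0.05. The circle and diamond of S100A16 nearly coincide at −1.06 and −1.07, and those of ANXA1 lie far apart at 0.49 and 1.505.

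Most of the wider S100 family lay below the filter on low counts. Of 15 other S100 genes, 3 passed it, and 2 of these fell, beside 23.7% of all genes tested. With no filter, and likewise with DESeq2, 2 further genes of at most 11 counts per library rose, S100P and S100A14. S100A2, which binds p53, was at 2.30, 2.99 and 2.93 CPM after MK5 siRNA, against 13.8, 16.7 and 17.1 CPM in controls (−2.53 ± 0.19, edgeR adjusted p = 0.000245). S100A3, known from hair follicles, was at 1.61, 2.43 and 1.38 CPM, against 8.01, 6.38 and 7.79 CPM in controls (−2.03 ± 0.26, edgeR adjusted p = 0.00138). Both genes were apart in all libraries, at levels far below those of S100A6 or S100A16. S100A1, best known from heart muscle, had 1 to 21 counts per library. It missed the threshold (0.53 ± 0.81, edgeR adjusted p = 0.618), and its estimate ran from 0.019 to 1.54 as single libraries were left out.

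By the RefSeq gene order of GRCh38, S100A10 and S100A11 are neighbours, and 47 coding genes separate them from a run of 14 S100 genes on chromosome 1. In that run S100A4, S100A3, S100A2 and S100A16 stand next to each other, and all 4 fell, with log2 fold changes of −2.60, −2.03, −2.53 and −1.06. S100A4 counts among them although it passed the filter only through its control libraries, and the next gene, S100A14, was below the filter. Beside these calls, 23.7% of all genes tested fell, and the stretch was singled out after its values were seen. S100A6, with the untested S100A5 between it and S100A4, did not pass over all libraries. At the far end of the run, S100A13 and S100A1 did not pass either. Of the promoters in this run, S100A2 and S100A3 each held an AP-1 match, 52 and 225 bases before the start.

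**Figure D4:**
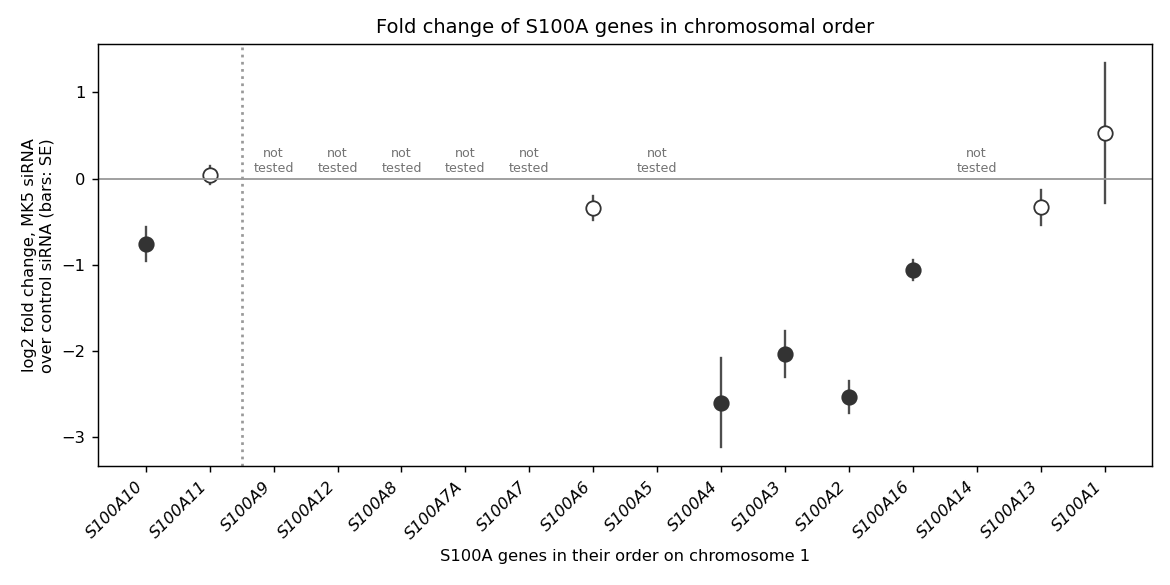
Log2 fold change, MK5 siRNA over control siRNA, with its standard error (y axis), of the S100A genes in their order along chromosome 1 (x axis, not to distance). Filled circles passed an adjusted p of 0.05, open circles did not, genes without a value were not tested, and the dotted line marks the gap of 47 coding genes. The 4 adjacent genes S100A4, S100A3, S100A2 and S100A16 lie at −1.06 or lower.

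Of 10 other annexin genes, 9 were in the table and 5 passed the filter, with 1 rise and 1 fall. Of all genes tested, 22.5% rose and 23.7% fell. ANXA11, which tethers RNA granules to lysosomes and binds S100A6, was at 153, 159 and 150.1 CPM after MK5 siRNA, against 279, 255 and 257 CPM in controls (−0.78 ± 0.09, edgeR adjusted p = 0.00104). ANXA10 was at 2.99, 2.47 and 2.46 CPM, against 0.383, 0.774 and 0.841 CPM in controls (1.98 ± 0.33, edgeR adjusted p = 0.00334). These are 82, 71 and 73 counts after MK5 siRNA and 10, 21 and 23 in controls. Its control libraries alone would not have met the filter on low counts. ANXA7 (0.22 ± 0.21), ANXA9 (−0.39 ± 0.21) and ANXA4 (−0.06 ± 0.34) did not pass (edgeR adjusted p = 0.422, 0.157 and 0.889). ANXA4 had the pattern of ANXA6 on a smaller scale, with 54.3, 57.4 and 59.2 CPM after MK5 siRNA, against 28.4, 73.6 and 76.7 CPM in control replicates 1, 2 and 3. It passed downward without control replicate 1 (−0.39, edgeR adjusted p = 0.00234).

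Among 26 genes for binding partners and receptors of these proteins, 21 were tested, of which 7 fell and 2 rose (median −0.34). Of all genes tested, 23.7% fell and 22.5% rose. With replicates 2 and 3 alone 11 of the partners and receptors fell and 5 rose, beside 37.8% and 37.9% of all genes. The list's count of rises ran from 0 to 4 as single libraries were left out. FGF1, the growth factor released together with S100A13, was at 1.82, 1.32 and 1.89 CPM after MK5 siRNA, against 22.7, 18.6 and 20.9 CPM in controls, a fall of 12.3-fold (−3.62 ± 0.20, edgeR adjusted p = 0.000201). PLAT, the tissue plasminogen activator that docks on the S100A10 and annexin A2 complex, was at 91.9, 100.3 and 99.1 CPM, against 1783, 535 and 583 CPM in controls (−3.32 ± 0.49, edgeR adjusted p = 0.00217). In both genes every MK5 siRNA library was below every control, and control replicate 1 was the highest for PLAT. CACYBP, which binds S100A6, fell by 1.13 ± 0.21 on the log2 scale (edgeR adjusted p = 0.00522). It was at 62.8, 65.4 and 64.2 CPM after MK5 siRNA, against 191, 115 and 115 CPM in control replicates 1, 2 and 3. Control replicate 1 enlarged this fall, with changes of −1.60, −0.81 and −0.84 in replicate pairs 1, 2 and 3.

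AGER, the receptor for advanced glycation end products and several S100 proteins, rose at a low level, to 3.87, 4.28 and 3.74 CPM after MK5 siRNA, against 1.11, 2.14 and 2.09 CPM in controls (1.15 ± 0.29, edgeR adjusted p = 0.0160). LGALS3, galectin 3, also rose (0.51 ± 0.13, edgeR adjusted p = 0.0180). The call of AGER was lost on leaving out MK5 siRNA replicate 2 (1.10, edgeR adjusted p = 0.0630), and that of LGALS3 on leaving out MK5 siRNA replicate 1 or 2 (0.46 and 0.48, edgeR adjusted p = 0.0531 and 0.0758). MYH9, the nonmuscle myosin heavy chain bound by S100A4, was at 2780, 2231 and 2166 CPM after MK5 siRNA, against 1907, 5165 and 5040 CPM in control replicates 1, 2 and 3 (−0.76 ± 0.36, edgeR adjusted p = 0.127), and passed downward without control replicate 1 (−1.09, edgeR adjusted p = 0.000108). AHNAK, the giant scaffold bound by the S100A10 and annexin A2 complex, was at 889.8, 871 and 918 CPM, against 2255, 973 and 941 CPM in controls (−0.64 ± 0.34, edgeR adjusted p = 0.162), and its log2 fold change without control replicate 1 was −0.095.

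Of 20 membrane repair genes, 16 were tested, of which 5 fell and 3 rose (median −0.23), beside 23.7% and 22.5% of all genes tested. The count that fell was 2 with the replicate number as a block, with library totals only, and without any single MK5 siRNA library or control replicate 2. It was 3 without control replicate 3 and with no filter on low counts, and 8 without control replicate 1. With replicates 2 and 3 alone it was 9, where 37.8% of all genes fell. The count that rose was 0 or 1 without MK5 siRNA replicate 2 or 3 or control replicate 2 or 3. CAPN2, a calcium-activated protease, and CAPNS1, the regulatory subunit of the calpains, fell by 0.90 ± 0.10 and 0.71 ± 0.16 on the log2 scale (edgeR adjusted p = 0.000818 and 0.0112). The other catalytic subunit on the list, CAPN1, overlapped between groups and did not pass (−0.019 ± 0.20, edgeR adjusted p = 0.943). DYSF, the membrane fusion protein dysferlin, was at 164, 155 and 141 CPM after MK5 siRNA, against 162, 315 and 290.5 CPM in control replicates 1, 2 and 3 (−0.74 ± 0.24, edgeR adjusted p = 0.0424). It did not pass with the replicate number as a block (−0.68, edgeR adjusted p = 0.0831), with library totals only (−0.65, edgeR adjusted p = 0.0780) or without any single library other than control replicate 1 (−0.57 to −0.78). Its relative MYOF did not pass (−0.41 ± 0.19, edgeR adjusted p = 0.111) except without control replicate 1 (−0.60, edgeR adjusted p = 0.000182) and with replicates 2 and 3 alone.

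SYT7, a calcium sensor of lysosome fusion (1.93 ± 0.49), VPS4A, an ATPase of membrane scission (0.43 ± 0.13), and EHD2, a protein of the caveolar neck (0.36 ± 0.09), rose over all libraries (edgeR adjusted p = 0.0172, 0.0290 and 0.0168). Each of these calls was lost when one of several libraries was left out. SYT7 gave 1.63 to 1.86 without MK5 siRNA replicate 2 or 3 or control replicate 2 or 3. VPS4A gave 0.41 to 0.46 without MK5 siRNA replicate 1, 2 or 3 or control replicate 2. EHD2 gave 0.345 to 0.364 without MK5 siRNA replicate 2 or control replicate 2 or 3, and was also lost with no filter on low counts (0.354). SYT7 also missed the threshold with the replicate number as a block (1.88, edgeR adjusted p = 0.0515). SYT7 had 23, 61 and 61 counts in MK5 siRNA replicates 1, 2 and 3, and 17, 11 and 7 in control replicates 1, 2 and 3. Its control libraries alone would not have met the filter on low counts.

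Of 24 EF-hand calcium sensors outside the S100 family, 19 were tested, of which 5 rose and 6 fell (median −0.20). Of all genes tested, 22.5% rose and 23.7% fell. Among the sensors, the count that rose was 3 without MK5 siRNA replicate 3 or control replicate 2. With replicates 2 and 3 alone 10 sensors fell, beside 37.8% of all genes. CALU, the reticular protein calumenin, was at 1871, 1894 and 1945 CPM after MK5 siRNA, against 564, 556 and 562 CPM in controls (1.76 ± 0.09, edgeR adjusted p = 0.000178). CIB1, which binds integrin tails, rose by a similar size (1.72 ± 0.11, edgeR adjusted p = 0.000209), and HPCAL1, a neuronal calcium sensor, by 0.94 ± 0.29 (edgeR adjusted p = 0.0354). HPCAL1 lost its call without any single library other than control replicate 1 (0.70 to 0.95). CALM2, one of the genes for calmodulin, was at 629, 604 and 633 CPM, against 2250.2, 1768 and 1655 CPM in controls (−1.60 ± 0.14, edgeR adjusted p = 0.000392). CALM3, another calmodulin gene, and CETN2, a centriole protein, fell by 0.80 ± 0.17 and 1.049 ± 0.12 on the log2 scale (edgeR adjusted p = 0.00837 and 0.000874). Exons of CIB1, CALM3 and VPS4A overlap those of GDPGP1, PPP5D1 and COG8 on the opposite strand, so some reads could belong to either gene.

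**Figure D5:**
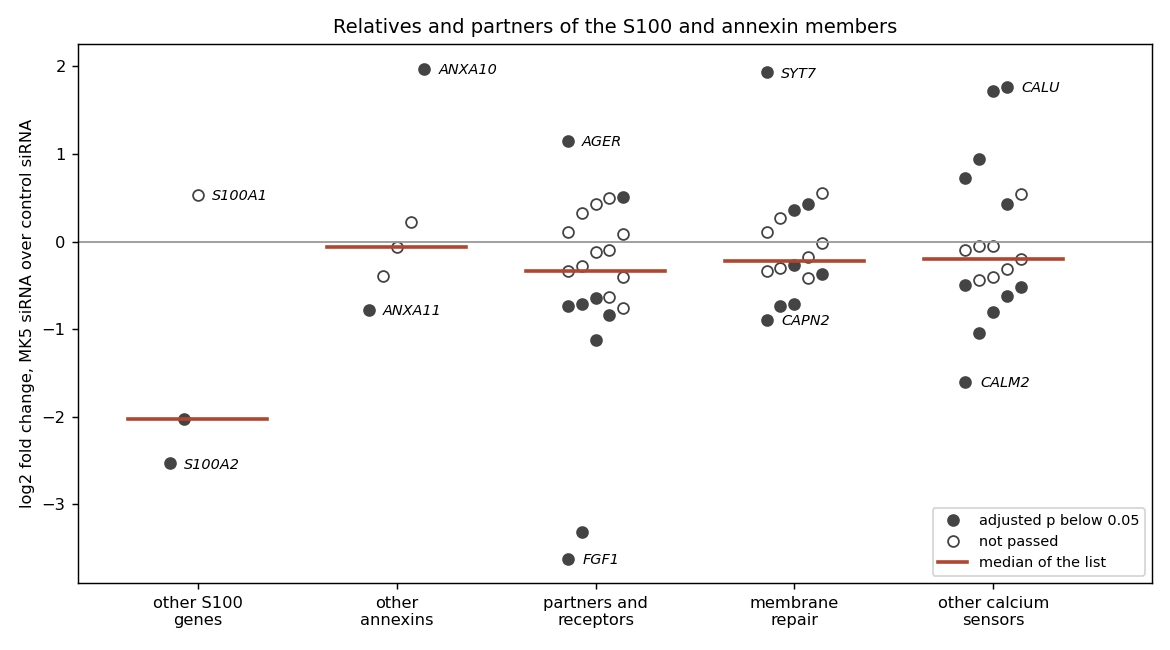
Log2 fold change, MK5 siRNA over control siRNA (y axis), of every tested gene in 5 lists of relatives and partners of the members (x axis). Filled circles passed an adjusted p of 0.05, open circles did not, red bars are list medians, and the highest and lowest gene of each list is named. FGF1 at −3.62 is the lowest point and ANXA10 at 1.98 the highest.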

How the data were processed

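RNA of 6 libraries was sequenced after library synthesis with a TruSeq V2 kit, per the labels' protocols. Tools listed in the submitters' processing notes are HTSeq 0.9.1, TopHat2 2.1.1, Trimmomatic 0.36 and FastQC, with GRCh37 as the build. No strand setting or annotation is named in the sources used here, so reads where genes overlap in opposite directions cannot be assigned. The deposited table holds whole-number counts per gene, although its name speaks of CPM. No row stood for unassigned reads. Library totals were 27188074 to 28236773 counts.

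Low genes were removed by filterByExpr at a minimum count of 10 and a minimum total of 15, which left 13431 genes. Using edgeR 4.0.16 under R 4.3.3, TMM factors set the library sizes and the groups were compared by the quasi-likelihood test, two-sided, with Benjamini-Hochberg adjustment over all genes tested and a threshold of 0.05. The SE is the absolute log2 fold change over the square root of F, and fold changes are given as estimate ± SE. The fit was tested on simulated data with known changes. That simulation had less spread between libraries than these data and no library that stood apart. It does not show how the fit performs with control replicate 1. Ratios and shares were tested over libraries by exact permutation. Replicates of a group differed beyond sampling noise (chi-square per gene of at least 4.17) and were kept apart. Libraries of the same replicate number deviated together from their group means across genes (correlations of 0.258, 0.206 and 0.248). This met the criterion for pairing, although no label ties a number to a day or batch. Replicates 2 and 3 also correlated across unlike numbers (0.151 and 0.182), so the pattern mainly sets replicate 1 apart from them. The tests given are unpaired unless the replicate number is named as a block. Exon lengths came from GENCODE 29 (GRCh38) by gene identifier, and coordinates are given for the RefSeq promoter windows only, because the counts were made on another build.

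The members, lists and alternatives were chosen with earlier results of these data known. Named are all members, every other tested S100 and annexin gene, MAPKAPK5, pseudogene rows of members with at least 10 counts in a library, up to 3 passing rises and 3 passing falls of largest size in each other list of relatives and partners, and AHNAK, MYH9, CACYBP, DYSF and MYOF. Alternatives were other library scalings, other filters, DESeq2 1.42.0, a replicate block, pseudogene reads added to their parents, each library left out, and replicate 1 left out of both groups.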

Additional observations from a re-analysis of the deposited data

How the results depend on the processing

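S100A16 kept its fall under every alternative. S100A4, which passed the filter only through its control libraries, kept its fall with no filter (−2.62) and in the other alternatives except a filter of 1 CPM, which removed it. The counts of members that rose and fell, 0 and 4 over all libraries, became 2 and 7 without replicate 1 in both groups. The number that rose was 1 with library totals only and 1 with a replicate block (ANXA5), and the number that fell was 5 with the replicate block. Leaving out single libraries gave 0 to 2 rises and 2 to 7 falls. With DESeq2, 0 rose and 4 fell. Beside the calls named above, the replicate block changed no other call among the named genes. Over all genes, 3020 rose and 3186 fell. Without replicate 1 in both groups, 5195 rose and 5177 fell, and 2103 to 4419 fell as single libraries were left out. In the 5 lists of relatives and partners, 3, 5, 21, 16 and 19 genes were tested. Of these, 11 rose and 21 fell, beside 22.5% and 23.7% of all genes tested. The rises ran from 5 to 14 as single libraries were left out. Without replicate 1 in both groups 34 fell, where 37.8% of all genes fell. Rises among other S100 genes went to 2 with no filter and with DESeq2, against 0. These were S100P and S100A14, which failed the filter on low counts and so had no test in the main fit. Why the other counts moved between settings was not tested.

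Directions that reversed belonged to values near 0. The log2 ratio of S100A10 to ANXA2 differed by 0.0099 without replicate 1 in both groups. S100A11 ranged from −0.0027 to 0.086 as single libraries were left out. ANXA4 was 0.024 with library totals only and 0.057 with the replicate block, and −0.39 to 0.15 as single libraries were left out. Library totals alone moved the median of all genes to 0.10. The members' share differed by −0.145 percentage points against TMM-scaled totals. S100A4, with 4 to 53 counts per library, has the least depth among the members.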

Other observations

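Some family members failed the filter on low counts and have no test in the comparison above. S100P had 3, 6 and 11 counts in MK5 siRNA replicates 1, 2 and 3 and none in the control libraries. S100A14 had 5, 11 and 5 counts after MK5 siRNA, against 0, 0 and 1 in control replicates 1, 2 and 3. ANXA3 had 1, 0 and 0 counts after MK5 siRNA, against 3, 6 and 3 in controls. With no filter on low counts S100P and S100A14 rose (edgeR adjusted p = 0.0124 and 0.0133) and ANXA3 fell (edgeR adjusted p = 0.0405). With DESeq2, S100P and S100A14 rose (DESeq2 adjusted p = 0.00719 and 0.0179) and ANXA3 did not pass (DESeq2 adjusted p = 0.0698). These genes were singled out after their values were seen.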
